A study of Homo sapiens with 62 samples.

Results

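The genes described here are the translation initiation factor genes: the 52 protein-coding genes whose symbol starts with EIF1 to EIF6, without the EIF2AK kinases, out of 19951 protein-coding genes among 58735 annotated genes. They were chosen by name and sorted by chromosome arm, not by any measured value. EIF2D lies on the long arm of chromosome 1 (1q), EIF3B on the short arm of chromosome 7 (7p), EIF3E and EIF3H on the long arm of chromosome 8 (8q), and the other 48 lie elsewhere. Of the 52 genes, 47 had enough reads to be tested in all 8 comparisons of a chromosome-arm loss with its controls, 4 in some of them, and EIF4E1B, with at most 10 reads in a library, in none.

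Translation starts when the small ribosomal subunit, carrying the initiator tRNA, is brought to the capped end of an mRNA and moves along it to a start codon. The eIF2 complex delivers the initiator tRNA and is recharged by eIF2B, eIF4F (the cap-binding eIF4E, the scaffold eIF4G and the helicase eIF4A) opens the mRNA, and the multi-subunit eIF3 joins the ribosome to the mRNA, while 4E-binding proteins hold eIF4E back. The subunits of eIF3 work as a single complex, and their genes lie on many chromosomes, so the comparisons with an arm loss ask whether the subunit mRNAs stay in proportion.

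RNA was sequenced from 62 libraries of 5 established human cell lines. A2058 is a melanoma line, with 4 unmodified (WT) libraries, 4 libraries from 2 clones that had lost an extra 1q, 6 from 3 clones that had lost an extra 7p and 4 from 2 clones that had lost an extra 8q. HCT116 is a colorectal cancer line, with 2 WT libraries and 4 from 2 8q-loss clones. AGS is a gastric adenocarcinoma line, with 1 WT library, 1 library from each of 2 clones that carry an integrated TK cassette and keep the 1q gain (TK+), and 1 from each of 5 1q-loss clones. A2780 is an ovarian cancer line, with 2 WT, 2 TK+ and 6 1q-loss libraries, the last from 3 clones. MCF10A is a non-cancerous breast epithelial line, with 2 WT libraries and 8 from 4 1q-loss clones, and the same numbers again in cells that express the hRASV12 oncogene. The losses were engineered with 3 versions of one method, called ReDACT: CO in A2058, HCT116, AGS clone 11 and MCF10A clone 4 of both settings, NS in the other AGS clones and in A2780, and TR in the other MCF10A clones. Each loss clone grew from a single cell, so a difference that a clone carries besides the targeted arm cannot be told apart from the loss within that clone. All cells were plated 24 hours before the RNA was taken.

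Depth ran from 15042068 counts in the shallowest AGS library to 30984036 in the deepest HCT116 library. Levels are given as CPM (counts scaled to a common library size with TMM factors) within a line. Folds, standard errors (SE) and adjusted p-values are from edgeR's quasi-likelihood test with Benjamini-Hochberg adjustment over all genes tested, and a gene is called changed where the adjusted p is under 0.05. The labels call the libraries of a clone biological replicates, but libraries of the same clone share that clone, so p-values measure the spread between these libraries only. Some libraries stood apart. In the A2058 1q-loss libraries the 5 melanocyte markers summed to 43.8 to 134 CPM, against 1660 to 2690 in WT, 906 to 2870 in 7p-loss and 1760 to 2620 in 8q-loss, with none of the 5 at 0, and basal epithelial markers summed to 56.3 to 284 CPM against 3.75 to 7.34 in WT. Y-linked genes were also low in these 4 libraries (RPS4Y1, a ribosomal protein gene, had 22 to 86 reads against 3304 to 4186 in WT). With these markers so far from WT, the identity of the A2058 1q-loss clones is uncertain, and any other difference from the WT line cannot be told apart from the loss of 1q in every A2058 1q-loss value given here. In A2780 none of 5 ovarian markers had a median of 1 CPM or more, in HCT116 1 of 5 intestinal markers did (summed 32.4 to 48.4 CPM), and in AGS 2 of 5 gastric ones and 4 of 5 intestinal ones (summed 270 to 545 CPM for the latter), while all 5 melanocyte markers did in A2058 and all 5 basal ones in MCF10A. The 2 HCT116 WT libraries differed from each other more than any other pair of replicates (chi-square per degree of freedom 75.3, the others down to 3.46).

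In every cell line and clone the initiation factor gene on the lost arm was lower. The median gap between a gene's shift and that of its arm was -0.01, though single clones departed by -0.30 to 0.29. The 4 genes gave 10 tests on a lost arm: the estimate was below 0 in 10 of 10, and 7 of 10 were called. For reference, of all genes tested on the lost arm 59.7%, 27.8% and 38.3% were called lower after 1q, 7p and 8q loss in A2058, 32.2% in AGS, 48.7% in A2780, 34.6% in MCF10A, 3.47% with hRASV12 and 0.0% in HCT116. Outside the lost arm 21 of 382 tests were called, and 7 of 334 without the A2058 1q-loss comparison. The share of all genes called ran from 0.14% to 49.6% by comparison, so these sums are a description and are read comparison by comparison further on. Over all 52 genes, 30 were called in no loss comparison, and the matching share of all genes was not counted.

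**Figure D1:**
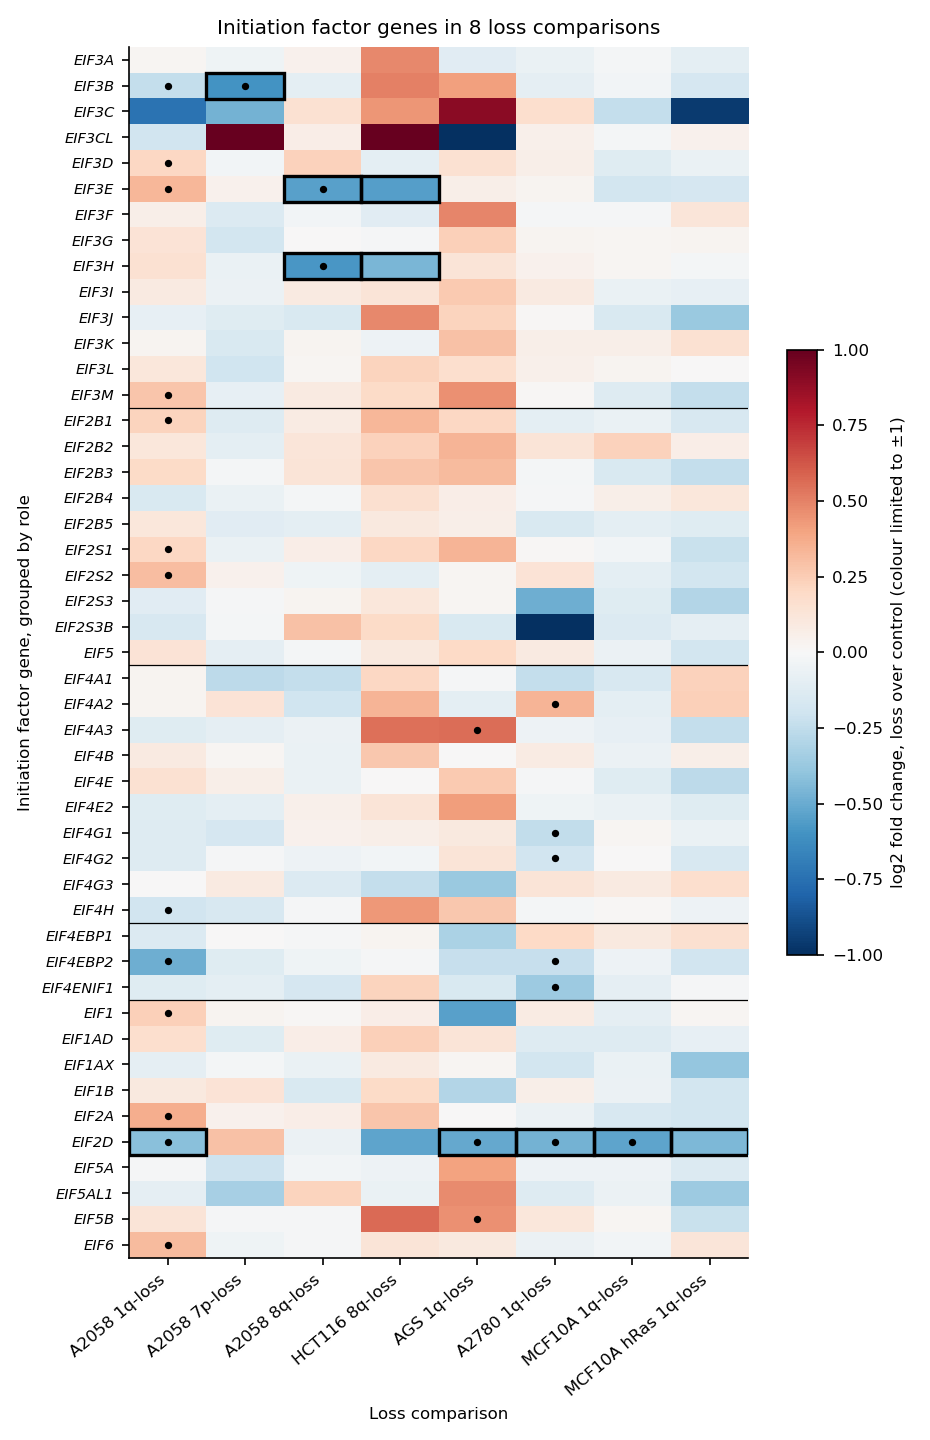
Heat map of the log2 fold change (loss over control) of each initiation factor gene, in rows grouped by role, in the 8 loss comparisons, in columns, for the 47 genes tested in all 8; red is higher after loss and blue lower, dots mark calls at an adjusted p under 0.05, and boxes mark genes on the lost arm. The boxed cells, EIF2D under 1q loss, EIF3B under 7p loss and EIF3E and EIF3H under 8q loss, lie between -0.42 and -0.60.

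EIF2D, a factor that can place initiator tRNA without eIF2 and helps recycle ribosomes, lies on the reverse strand of GRCh38 chr1:206571292-206612463 and shared none of its 100-base sequences with another gene. In A2058 its level in the WT libraries was 68.6, 70.2, 78.0 and 63.2 CPM and in the 1q-loss libraries 54.3, 57.7, 47.2 and 50 CPM. Every loss library was below every control. As these are bulk libraries, fewer cells with the transcript and less of it per cell cannot be told apart. The means were 70.0 ± 6.11 (SD, n = 4) and 52.3 ± 4.62 (SD, n = 4) CPM, and the log2 fold change was -0.42 with an SE of 0.0853 (edgeR, adjusted p = 0.00199). The median over the 1q genes tested was -0.46. Of all genes tested in this comparison 49.6% were called, so a call by itself says little here, and the arm median is the closer reference. The loss libraries are those that stood apart in melanocyte markers and Y-linked genes, and the part of that in the change of EIF2D was not tested.

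In AGS, EIF2D stood at 62 and 76.7 CPM in the TK+ clones and 69.8 in the WT library, against 41.0, 47.6, 51.1, 52.2 and 51.3 CPM in 1q-loss clones 1, 4, 6, 7 and 11. The groups did not overlap, and the log2 fold change was -0.51 (SE 0.115, adjusted p = 0.0318, edgeR) with a 1q median of -0.54. Of all genes, 7.55% were called. The call was lost when any 1 library but that of clone 11 was left out, with adjusted p from 0.0533 to 0.151 (edgeR) and fold changes of -0.59 to -0.44.

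In A2780, EIF2D was 73.2 and 74.4 CPM in WT and 67.2 and 70.8 CPM in TK+ cells, and 44.4 (lowest), 49.5 (median) and 63.2 (highest) CPM over the 6 1q-loss libraries. No loss library reached a control, and the log2 fold change was -0.47 (SE 0.0982, adjusted p = 0.0113, edgeR) against a 1q median of -0.45. Of all genes, 11.8% were called. Clone 6 kept the most, with a shift of -0.27 while its 1q genes shifted by -0.37.

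In MCF10A, EIF2D was 69.9 and 73.2 CPM in WT and 41.9, 50.2 and 53.6 CPM (lowest, median, highest) in the 8 1q-loss libraries, again without overlap. The log2 fold change was -0.53 (SE 0.0915, adjusted p = 0.00618, edgeR), the 1q median -0.49, and 2.04% of all genes were called. EIF2D was the 1 initiation factor gene of 50 called in that comparison. The call was lost without either WT library (adjusted p = 0.117 and 0.173, edgeR). In MCF10A cells with hRASV12, EIF2D was 71.3 and 70.7 CPM in WT and 42.9, 52.6 and 60.1 CPM (lowest, median, highest) in the 1q-loss libraries. The libraries did not overlap, but the log2 fold change of -0.45 (SE 0.121) missed the threshold (adjusted p = 0.18, edgeR), with 0.214% of all genes called. DESeq2 gave the same fold change with an adjusted p of 0.0414. The change in EIF2D did not differ detectably between cells with and without hRASV12 (difference 0.08 on the log2 scale, SE 0.159, adjusted p = 0.999, edgeR interaction).

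EIF3B, a subunit that holds EIF3G and EIF3I and contacts the ribosome, lies on the forward strand of GRCh38 chr7:2354086-2380745. In A2058 it was 680, 651, 689 and 631 CPM in WT and 405, 429 and 474 CPM (lowest, median, highest) in the 6 7p-loss libraries. All 6 loss libraries were below all 4 controls, and the 3 clones shifted by -0.69, -0.63 and -0.50. The log2 fold change was -0.60 (SE 0.0674, adjusted p = 0.00169, edgeR), with a 7p median of -0.51. EIF3B was the 1 gene of 49 initiation factor genes called after 7p loss, where 0.908% of all genes were called. The call was lost with 2 of the 4 WT libraries as controls (adjusted p = 0.0545 with libraries 1 and 2 and 0.0521 with libraries 3 and 4), with fold changes of -0.61 and -0.59.

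EIF3E and EIF3H, subunits of the structural core of eIF3 that carry PCI and MPN domains respectively, lie on the reverse strand of GRCh38 chr8:108201216-108435333 and chr8:116642130-116766925. In A2058, EIF3E was 383, 359, 358 and 310 CPM in WT and 287, 221, 257 and 209 CPM after 8q loss. EIF3H was 318, 294, 344 and 299 CPM in WT and 219, 204, 218 and 202 CPM after 8q loss. Neither gene's groups overlapped. The log2 fold changes were -0.54 (SE 0.113, adjusted p = 0.0424) for EIF3E and -0.58 (SE 0.0749, adjusted p = 0.00481) for EIF3H by edgeR, with an 8q median of -0.53. These were the 2 of 49 initiation factor genes called after 8q loss in A2058, where 2.03% of all genes were called. The EIF3E call was the less secure: it was lost in 7 of 10 fits that left out a library or a clone (without WT library 1, 2 or 3, clone 2, either library of clone 2 or library 2 of clone 1, adjusted p 0.0673 to 0.158, edgeR), while the EIF3H call was kept in each of those and lost with WT libraries 1 and 2 or 3 and 4 alone as controls (adjusted p = 0.0587 and 0.127).

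In HCT116, EIF3E was 448 and 439 CPM in WT and 282, 360, 318 and 255 CPM after 8q loss, without overlap. EIF3H was 118 and 156 CPM in WT and 82.7, 100, 118 and 97.2 CPM after 8q loss, where 1 loss library met the lower control. The log2 fold changes were -0.55 (SE 0.244, adjusted p = 0.901) and -0.46 (SE 0.262, adjusted p = 1.0), neither called by edgeR. The size for EIF3H depended on the control kept, with -0.64 without WT library 1 and -0.23 without WT library 2. No initiation factor gene of 49 was called in HCT116 by edgeR or by DESeq2, 3 had an unadjusted p under 0.05, and 0.14% of all genes were called. The median over the 8q genes tested was -0.57, about that of A2058, and none of them was called lower either.

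**Figure D2:**
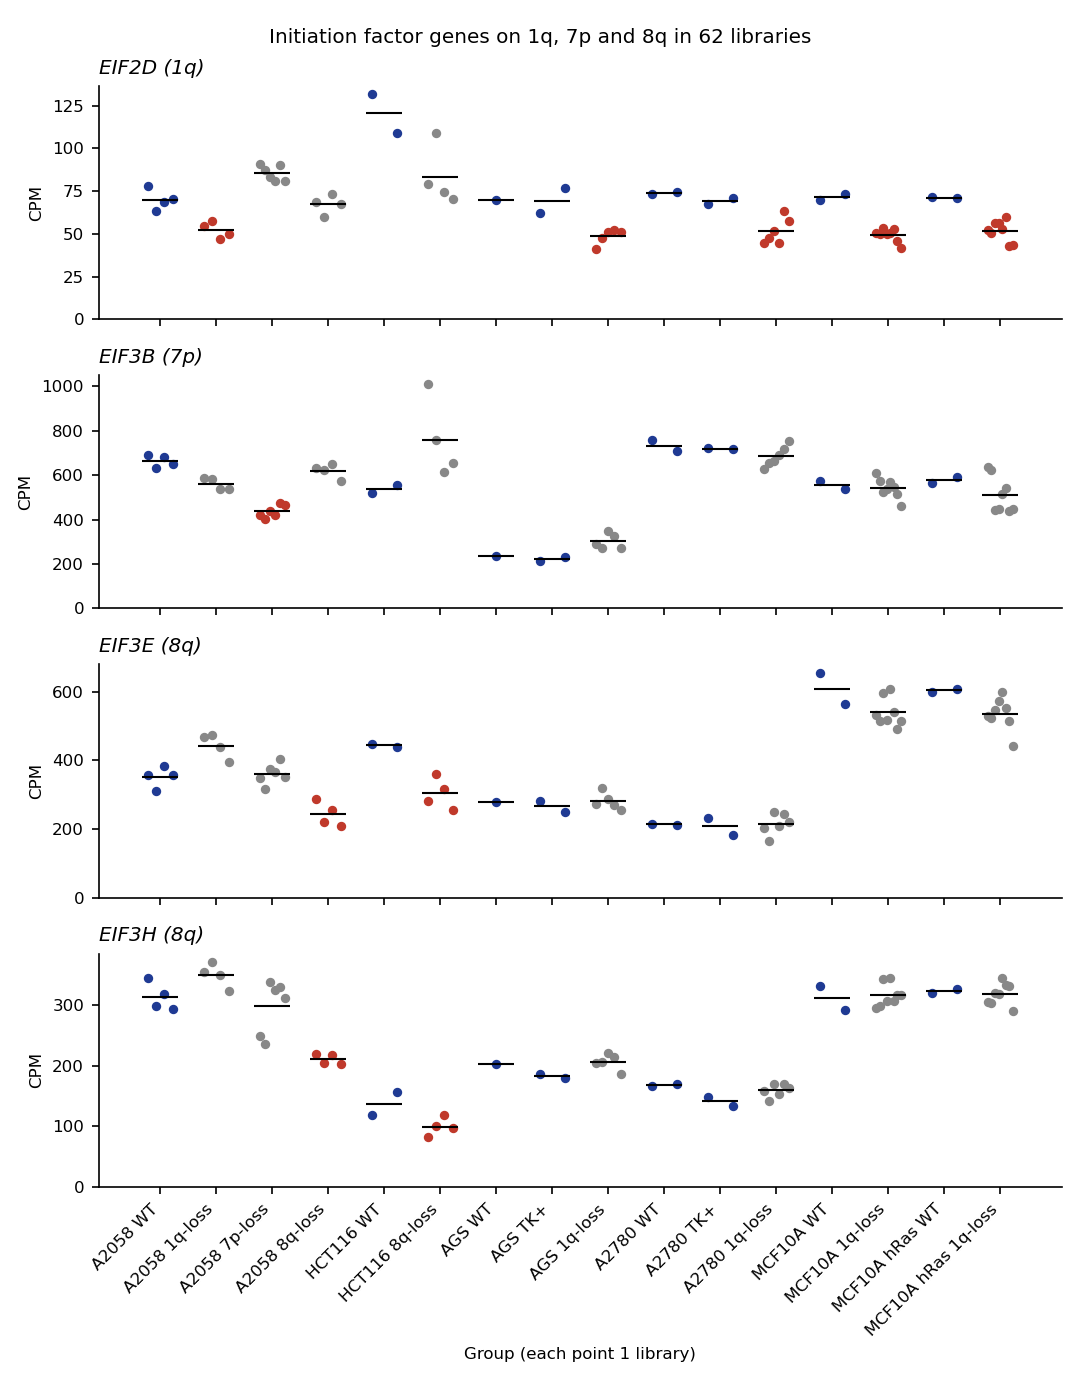
CPM of EIF2D, EIF3B, EIF3E and EIF3H (one panel each, vertical axis) in all 62 libraries by group (horizontal axis); each point is a library, blue for WT and TK+, red where the gene's own arm was lost and grey where another arm was lost, and bars mark group means. The red points lie below the blue points of the same line, except for EIF3H in HCT116, where a loss library at 118 CPM meets the lower control.

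Clone by clone, the 4 genes gave 29 shifts on a lost arm (a clone's mean log2 CPM minus the control mean), all below 0 and between -0.27 and -0.77. The medians of the other genes of the same arm in the same clones ran from -0.30 to -0.65. The gene was below its arm in 16 of the 29 gene and clone pairs, above it in 12 and equal to it in 1, with gaps from -0.30 to 0.29 and a median gap of -0.01. For scale, going from 3 to 2 copies is -0.58 on the log2 scale. EIF2D in clone 4 of MCF10A, made with ReDACT-CO, shifted by -0.71, and by -0.73 in clone 4 with hRASV12, against -0.35 to -0.52 in the other MCF10A clones of both settings. The clones carry the same numbers and ReDACT versions with and without hRASV12. They may therefore be the same clones, and the 29 shifts may not all be independent. Whether the ReDACT version has a part in that was not tested, since clone 4 is the 1 CO clone in each setting.

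**Figure D3:**
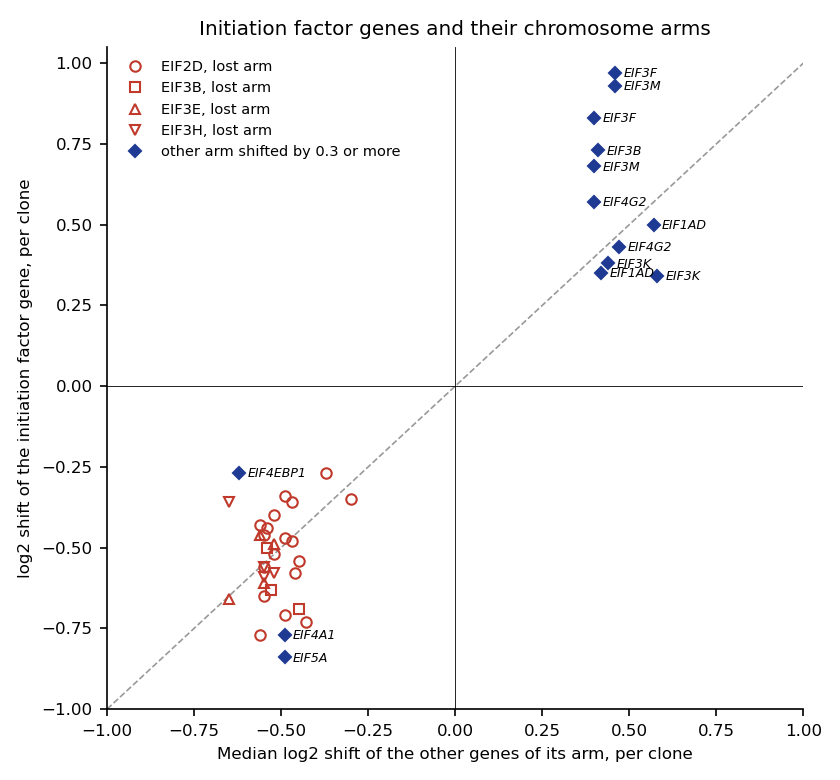
Shift of each initiation factor gene in each clone (vertical axis, log2) against the median shift of the other genes on its arm in the same clone (horizontal axis, log2); open red symbols are genes on the lost arm, filled blue diamonds are genes on another arm that shifted by 0.3 or more, and the dashed line marks equality. The 29 red points lie at -0.27 to -0.77 on the vertical axis, and the 14 blue points all have the sign of their arm.

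Some clones also differed from their controls in an arm that was not targeted. Among arms with at least 30 other tested genes, which leaves out the arm of EIF1AY with 11, shifts of 0.3 or more touched 14 clone and gene pairs, from 9 genes, and in 14 of 14 the gene had the sign of its arm. The sizes were less alike: some genes moved well past their arm, and EIF4EBP1 in AGS clone 4 moved by -0.27 where its 8p genes moved by -0.62. In clone 1 of the A2058 7p-loss group, whose 17p genes shifted by -0.49, EIF5A (the hypusine-bearing factor that helps ribosomes through difficult peptide bonds) was at 687 and 692 CPM against 1130 to 1350 CPM in WT, a shift of -0.84. EIF4A1, the main eIF4A helicase and also on 17p, shifted by -0.77 in that clone, on 49 to 527 reads per library over all 5 lines; it shares 35.6% of its 100-base sequences with overlapping and related genes, so reads may be assigned elsewhere.

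In AGS clones 1 and 4 the genes of 11p shifted by 0.40 and 0.46. The 11p gene EIF3F, an MPN-domain subunit of eIF3, was at 240 and 265 CPM there against 123 to 149 CPM in the 3 controls, and EIF3M, also on 11p, at 222 and 265 CPM against 134 to 149 CPM. Their shifts were 0.83 and 0.97 for EIF3F and 0.68 and 0.93 for EIF3M, larger than those of their arm, while in clones 6, 7 and 11 they were 0.13 to 0.18 and 0.16 to 0.25. The other genes of chromosome 11 lay nearer their arm in clones 1 and 4: EIF4G2 on 11p shifted by 0.57 and 0.43, and EIF1AD on 11q by 0.35 and 0.50 where 11q shifted by 0.42 and 0.57. In clone 4 of MCF10A, whose 19q genes shifted by 0.44, the eIF3 subunit EIF3K was at 307 and 275 CPM against 234 and 219 in WT, and in clone 4 with hRASV12 (19q shift 0.58) at 265 and 253 CPM against 211 and 205. In HCT116 clone 1 the 7p genes shifted by 0.41 and EIF3B by 0.73, with 1010 and 759 CPM against 518 and 557 in WT. Across the initiation factor genes off the targeted arm, Pearson's r between a gene's shift and its arm's shift lay between 0.17 (MCF10A with hRASV12, 192 points) and 0.64 (A2058 8q-loss, 92 points). This is a description over points that share libraries and arms.

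The balance of eIF3 was measured within each library as a subunit's log2 CPM minus the mean log2 CPM of the 10 subunits that lie outside 1q, 7p and 8q, which cancels changes common to the complex. A subunit that is itself among the 10 was set against the mean of the others of the 10. After 7p loss in A2058, EIF3B stood 1.29 to 1.55 above the mean of the 10, against 1.77 to 1.98 in WT, a difference of -0.46. After 8q loss in A2058, EIF3E moved from 0.85 to 1.15 in WT to 0.15 to 0.65 (difference -0.60) and EIF3H from 0.62 to 0.94 to 0.10 to 0.26 (difference -0.64). None of these ranges overlapped. Their own fold changes were -0.60 for EIF3B, -0.54 for EIF3E and -0.58 for EIF3H, so the difference on the balance scale was the smaller for EIF3B and slightly the larger for the other two. In HCT116 the differences were -0.69 for EIF3E (1.62 to 1.67 in WT, 0.75 to 1.14 after loss) and -0.59 for EIF3H (-0.26 to 0.13 in WT, -1.02 to -0.29 after loss). There the reference itself was unsteady, since the largest subunit, EIF3A, was 48.7 CPM in one WT library and 112 in the other.

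How often ranges separate among all genes was not counted, so the separations given for eIF3 subunits are a description. HCT116 had few libraries, and ranges could separate there by chance. After 7p loss, EIF3B was the 1 subunit of 13 whose range left that of WT. The difference of EIF3A, the subunit that EIF3B binds, was 0.11, of EIF3E 0.17 and of EIF3H 0.05, all with overlapping ranges. After 8q loss in A2058, EIF3B gave -0.16 (overlapping), EIF3M 0.03, and EIF3J, a loosely bound subunit, -0.23 with ranges of -0.41 to -0.19 in WT and -0.59 to -0.48 after loss. In HCT116, EIF3B was at 0.34 and EIF3D, a subunit that can bind the cap, at -0.28 on this scale, both without overlap. Measured against the median of the 10 subunits in place of their mean, these were 0.53 and -0.06, so the EIF3D value rests on the reference. With 1q loss, which carries no eIF3 gene, the ranges still separated for EIF3B (-0.27), EIF3E (0.30) and EIF3M (0.28) in A2058 and for EIF3A (-0.42) and EIF3E (-0.21) in AGS. Against the median reference they were -0.41, 0.16 and 0.11 in A2058 and -0.44 and -0.27 in AGS. The AGS reference includes EIF3F and EIF3M, which were high in clones 1 and 4, and neither AGS gene was itself called (EIF3A -0.11, adjusted p = 0.537, and EIF3E 0.06, adjusted p = 0.762, edgeR). On the balance scale EIF3A was at 1.44 and 1.30 in clones 1 and 4. It was at 1.49, 1.46 and 1.41 in clones 6, 7 and 11, against 1.81 to 1.87 in the controls. The part of the reference in these differences was not tested. The ranges separated for no subunit in A2780 or MCF10A with or without hRASV12. In A2780 the reference includes EIF3L, which had only 93 to 149 reads per library there. EIF3C was the noisiest subunit, in A2058 WT alone from -3.29 to -1.10, and shares 42.9% of its 100-base sequences with other genes, chiefly its near copy EIF3CL, so reads can be split between them.

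**Figure D4:**
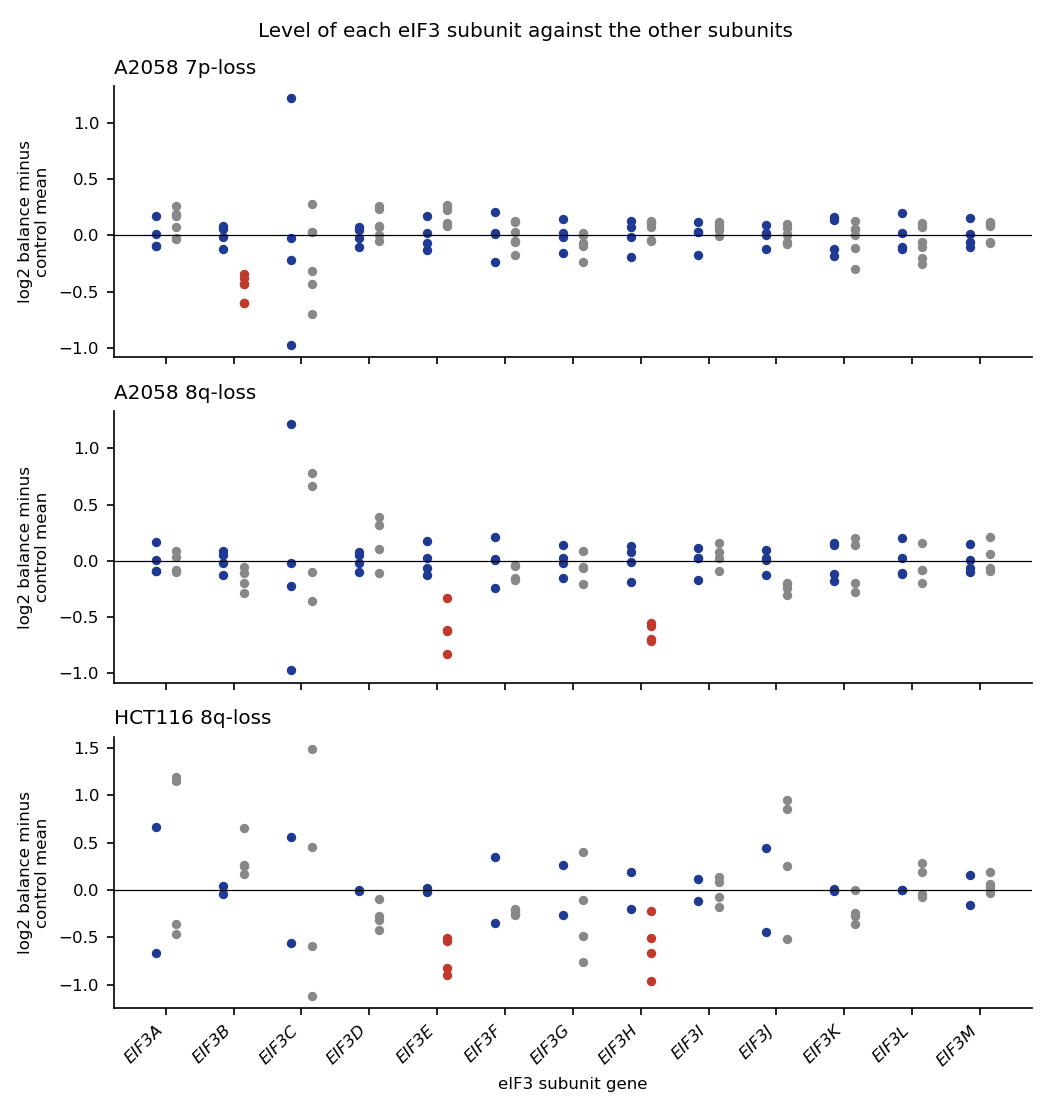
Balance of the 13 eIF3 subunits (horizontal axis) in 3 loss comparisons: log2 CPM minus the mean of the 10 subunits outside 1q, 7p and 8q, less the mean of the controls (vertical axis), with 1 point per library, blue for controls, red for subunits on the lost arm and grey for the others after loss. A subunit that is itself among the 10 was set against the mean of the others of the 10. EIF3B after 7p loss (-0.46) and EIF3E and EIF3H after 8q loss (-0.60 and -0.64 in A2058, -0.69 and -0.59 in HCT116) stand below their controls.

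The 3 loss groups of A2058 were also compared with each other, using no WT library. Between 8q loss and 7p loss, 4 of 49 initiation factor genes were called, where 3.35% of all genes were, and 3 of these 4 lie on 7p or 8q: EIF3E (-0.57, adjusted p = 0.0181, edgeR), EIF3H (-0.50, adjusted p = 0.0448) and EIF3B (0.50, adjusted p = 0.00661). The other was EIF2D (-0.35, adjusted p = 0.038). It was higher in the 7p-loss libraries, at 80.8 to 90.7 CPM, than in WT, at 63.2 to 78.0 CPM, a log2 fold change of 0.29 that edgeR did not call (adjusted p = 0.118) and DESeq2 did (0.00862). The median of the other 1q genes in that comparison was 0.07. The 4 calls between 8q and 7p loss fell to 0 with the libraries of each clone summed and to 0 without 8q-loss clone 2, and to between 0 and 2 in 11 of 15 fits that left out a library or a clone. Between 7p loss and 1q loss 14 of 49 were called (36.3% of all genes) and between 8q loss and 1q loss 12 of 49 (41.8% of all genes), and with clones summed 1 and 5 were. Without 1q-loss clone 1 they were 4 and 5, and without 1q-loss clone 2 the first was 7, as the second was without 8q-loss clone 2. EIF2D was higher by 0.73 (adjusted p = 3.58e-05, edgeR) and 0.38 (adjusted p = 0.00801) in these, EIF3B lower after 7p loss than after 1q loss (-0.34, adjusted p = 0.00221), and EIF3E and EIF3H lower after 8q loss than after 1q loss, with -0.85 (adjusted p = 0.000279) and -0.72 (adjusted p = 5e-05). The share of initiation factor genes called was below that of all genes in both.

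Outside the lost arm, the A2058 1q-loss comparison held most of the calls. There 14 of 48 genes off 1q were called, 10 higher and 4 lower. Of all genes 25.3% were called higher and 24.3% lower, and the initiation factor genes had a median of 0.04 against 0.00 for all genes, so the share called was not above the background. By role, 3 of 10 eIF2 and eIF2B genes rose and none fell, 3 of 14 eIF3 genes rose and 1 fell, none of 10 eIF4 genes rose and 1 fell, 1 of 3 eIF4 inhibitor genes fell, and 4 of 11 of the remaining factors rose and 1 fell. These libraries were the ones with low melanocyte marker levels, and the part of that difference in these changes was not tested.

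The largest rises were in EIF5A2, the other hypusine-bearing factor (24.4 ± 2.96 CPM in WT, 32.8 ± 2.27 after loss, n = 4 each, log2 fold change 0.42, adjusted p = 0.00557, edgeR), EIF2A, which can deliver initiator tRNA in place of eIF2 (0.36, adjusted p = 0.00464), EIF3E (0.33, adjusted p = 0.00737) and EIF6, which keeps the large ribosomal subunit apart (0.32, adjusted p = 0.00168). The other 6 that rose did so by 0.21 to 0.31. Of those that fell, EIF4EBP2, a 4E-binding protein, went from 168 to 215 CPM in WT to 142, 156, 133 and 141 CPM (log2 fold change -0.49, SE 0.0881, adjusted p = 0.000912, edgeR). EIF3B (-0.24, adjusted p = 0.00606) and EIF4H, a partner of eIF4A (-0.19, adjusted p = 0.0185), fell less. Without clone 1 the call of EIF3E was lost (0.24, adjusted p = 0.0696, edgeR), without clone 2 that of EIF3B (-0.19, adjusted p = 0.0787), and without either clone that of EIF4H. The EIF4H call was also lost without library 1 of clone 2, without a filter on low counts, with all libraries of the line in one fit, with clones summed and with WT libraries 1 and 2 alone as controls (adjusted p 0.0546 to 0.325, edgeR). EIF3E was the 1 initiation factor gene called in both directions, higher after 1q loss and lower after 8q loss in A2058, 2 comparisons that share the WT libraries.

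EIF1AY, the Y-linked copy of the scanning factor eIF1A, had 377 to 478 reads in the A2058 WT libraries and 0 to 10 in the 1q-loss libraries (7 and 10 in clone 1, 0 and 3 in clone 2). The fitted log2 fold change was -6.39 (adjusted p = 7.6e-07, edgeR), and the 11 other tested genes of its arm had a median of -6.37. It was also at 0 reads in both libraries of 7p-loss clone 3, which allows up to 3 reads each, and at 395 to 670 in the other 7p-loss and 8q-loss libraries. Other Y-linked genes, such as RPS4Y1, were low in the 1q-loss libraries as well. In the 7p-loss group this was not so for all of them: RPS4Y1 had 3339 to 4787 reads over the 6 libraries and DDX3Y 1928 to 2899, while KDM5D reached 0. Its X-linked counterpart EIF1AX did not change detectably in the 1q-loss libraries (-0.09).

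In A2780, 6 of 48 genes were called, 12.5% against 11.8% of all genes, and 5 of the 6 lie off 1q. EIF4ENIF1, which carries eIF4E into the nucleus and to processing bodies, went from 32.8, 37.4, 34.9 and 34.7 CPM in the controls to between 24.4 and 31.6 CPM (log2 fold change -0.36, SE 0.0842, adjusted p = 0.0197, edgeR). The eIF4G scaffold EIF4G1 went from 2020 ± 87.5 (SD, n = 4) to 1700 ± 126 (SD, n = 6) CPM (-0.25, adjusted p = 0.0389, edgeR). EIF4EBP2 (-0.23, adjusted p = 0.0193) and the eIF4G relative EIF4G2 (-0.19, adjusted p = 0.0484) fell as well, and all 4 had no overlap between groups. The same held for EIF2S3, an eIF2 subunit gene that was not called, with 354 to 635 CPM after loss against 653 to 731 in the controls. The share of all genes without overlap was not counted. The helicase EIF4A2 rose from 134 ± 12.8 to 169 ± 19 CPM (0.34, adjusted p = 0.0407), with overlapping libraries. EIF4EBP2 was called lower in 2 of the 5 1q-loss comparisons, and its estimate was -0.23 in AGS, -0.05 in MCF10A and -0.19 with hRASV12, none of them called. Of 13 fits that left out a library or a clone, the call was lost in 11 for EIF4G1 and EIF4G2, 9 for EIF4A2, 3 for EIF4ENIF1 (without clone 2, WT library 2 or TK+ library 2, adjusted p up to 0.0704, edgeR) and 2 for EIF4EBP2 (without WT library 1 or TK+ library 2, adjusted p up to 0.0608). With the libraries of each clone summed none of the 5 was called, and EIF2D was the 1 call that was kept. Without a filter on low counts 4 of the 5 lost the call, EIF4ENIF1 being the exception.

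In AGS, 3 of 48 genes were called, 6.25% against the 7.55% of all genes, and 2 of them lie off 1q. EIF4A3, the eIF4A relative that marks exon junctions on mRNA, rose from 64.1, 64.6 and 67.5 CPM to 106, 97.1, 93.4, 103 and 81.6 CPM (log2 fold change 0.56, SE 0.108, adjusted p = 0.0197, edgeR). EIF5B, the GTPase that joins the ribosomal subunits, rose from 156, 142 and 155 to 202, 204, 229, 223 and 173 CPM (0.46, SE 0.117, adjusted p = 0.0458, edgeR). Clone 11, the 1 CO clone, was the lowest of the 5 loss clones for both. The EIF4A3 call was lost when any 1 control library was left out (adjusted p 0.0744 to 0.0961, edgeR) and the EIF5B call when any 1 library but that of clone 11 was (0.0685 to 0.19), and both without clones 6 and 7. EIF3B, at 290, 274, 349, 326 and 272 CPM against 213, 233 and 238, missed the threshold (0.41, adjusted p = 0.0663, edgeR). It was called by DESeq2 (0.42, adjusted p = 0.0108) and by edgeR without clone 11 (0.45, adjusted p = 0.0456) and without clones 1 and 4 (0.49, adjusted p = 0.049).

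No other initiation factor gene off the lost arm was called in a loss comparison: none of 48 after 7p loss and none of 47 after 8q loss in A2058, none of 47 in HCT116, none of 49 in MCF10A and none of 49 in MCF10A with hRASV12. With hRASV12, edgeR called none of 50 genes and DESeq2 called 2, and 6 had an unadjusted p under 0.05. Most estimates were small. Off the lost arm, the log2 fold change was within 0.3 of 0 in 44 of 48 genes after 7p loss and 47 of 47 after 8q loss in A2058, 34 of 47 in HCT116, 30 of 47 in AGS, 43 of 47 in A2780, 49 of 49 in MCF10A and 44 of 49 with hRASV12. In HCT116 the uncalled estimates included EIF4A3 at 0.55, with 205 and 191 CPM in WT and 271, 289, 312 and 291 CPM after 8q loss, and EIF2D at -0.53, with 132 and 109 CPM in WT and 70.5 to 109 CPM after loss. EIF2D is not on 8q, and the median of the other 1q genes was 0.03.

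The TK cassette and the oncogene, which leave the arms in place, called none of the initiation factor genes by edgeR. Between A2780 TK+ and WT cells it was none of 48 (DESeq2 none, 3 with an unadjusted p under 0.05), with 11.2% of all genes called. With TK+ library 1 or 2 left out some were called, but the lone TK+ library is then assumed to vary like WT. The share of all genes called in those fits is not given here. For hRASV12 it was none of 49 in WT MCF10A (DESeq2 none, 6 with an unadjusted p under 0.05; 1.62% of all genes called) and none of 49 in the 1q-loss clones (DESeq2 1, 7 with an unadjusted p under 0.05; 1.2% of all genes called). The interaction of 1q loss with hRASV12 was called for none of 50 genes (1 with an unadjusted p under 0.05, EIF4EBP3, which had at most 17 reads in any library), with 0.0% of all genes called.

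Per length, as TPM (counts per length, scaled to a common total) in the WT libraries, EIF5A was the highest of the initiation factor genes in A2058, A2780, HCT116 and MCF10A, with means of 1650, 1760, 1870 and 1380 TPM, and ranked 7 in AGS at 340 TPM, where EIF1 was highest at 885. The genes on the targeted arms were not alike in level. The A2780 table gives other gene lengths, so its TPM are ranked within that line only and left out of these ranges. EIF2D had 29 TPM in AGS to 39 in HCT116, EIF3B 88.5 in AGS to 279 in A2058, EIF3E 156 in AGS to 402 in MCF10A, and EIF3H 57.2 in HCT116 to 192 in MCF10A. The eIF3 subunits, which are built into one complex in equal numbers, had mRNA levels in A2058 of 77.0 TPM (EIF3F) to 738 TPM (EIF3I), leaving aside EIF3C and its copy. The lengths used were 9431 bases for EIF3F and 1725 for EIF3I. Their reads per A2058 WT library were 3659 to 4717 and 6877 to 7763, so that range rests in good part on the lengths. EIF3L has 2 entries in the A2780 table with 93 to 149 reads per library, so its level there is not interpretable.

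Other genes of the pathway were taken from 3 lists. Of 28 partners and regulators of initiation, 27 were tested in the A2058 comparisons and AGS and 28 in the others. Of these edgeR called 8 higher and 2 lower after 1q loss in A2058, 1 lower after each of 7p and 8q loss in A2058, 2 lower in AGS, 2 higher and 2 lower in A2780, 1 lower in MCF10A, and none in HCT116 or with hRASV12. Of all genes 25.3% were called higher and 24.3% lower in A2058 1q-loss, and in the other comparisons named here 0.908%, 2.03%, 7.55%, 11.8%, 2.04%, 0.14% and 0.214% were called either way, in the order given. PPP1R15B on 1q, the constitutive partner of the eIF2 alpha phosphatase, was called lower in 4 of 5 1q-loss comparisons: -0.44 in A2058 (adjusted p = 0.0002), -0.76 in AGS (0.0152), -0.53 in A2780 (0.00131) and -0.69 in MCF10A (0.00555), with -0.63 (0.0698) under hRASV12. EIF2AK1 on 7p, a kinase that phosphorylates eIF2 alpha, fell after 7p loss (-0.56, adjusted p = 0.00511), and PABPC1 on 8q, the poly(A)-binding protein that bridges the mRNA tail to eIF4G, fell after 8q loss in A2058 (-0.64, adjusted p = 0.00853, edgeR), with -0.23 and no call in HCT116. The largest changes of the list off a targeted arm were MKNK2, a kinase of eIF4E, in A2058 1q-loss (1.69, adjusted p = 1.64e-06) and EIF2AK2, the double-stranded RNA-sensing eIF2 alpha kinase, in AGS (-1.27, adjusted p = 0.00529).

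Of 12 elongation and termination genes, of which 9 to 11 were tested by comparison, 1 was called higher (EEF1A2, 3.55, adjusted p = 1.27e-06, edgeR) and 2 lower in A2058 1q-loss, 1 lower in A2780, and none in the other 6 loss comparisons. EEF1D, an elongation factor subunit on 8q, was at -0.60 (adjusted p = 0.118) in A2058 and -0.56 in HCT116 after 8q loss, neither called. Of 14 genes comprising ATF4 and its targets, which are read as an output of eIF2 alpha phosphorylation, 12 were tested in AGS, 13 in HCT116 and 14 elsewhere. Of these 4 rose and 2 fell in A2058 1q-loss, 1 fell in A2058 8q-loss (SESN2, -0.65, adjusted p = 0.0305), 1 rose and 1 fell in AGS, 3 rose in A2780, and none was called elsewhere, with the same shares of all genes as background. In the first of these, CEBPB (1.44, adjusted p = 1.07e-06) and TRIB3 (1.00, adjusted p = 1.17e-05) rose and VLDLR (-1.77, adjusted p = 0.000302) fell. ASNS, asparagine synthetase, fell in AGS (-1.25, adjusted p = 0.0196) and rose in A2780 (0.41, adjusted p = 0.0233), and ATF3, itself on 1q, rose in both (0.83, adjusted p = 0.0248, and 1.78, adjusted p = 0.046, edgeR).

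MYC, whose product is a transcription factor known to bind the sequence CACGTG and to drive genes of protein synthesis, lies on 8q and fell after 8q loss in A2058 (-0.85, SE 0.0989, adjusted p = 0.00275, edgeR), while in HCT116 it was at -0.32 (SE 0.248, adjusted p = 1.0). The 250 bases before the start of each gene were taken from RefSeq (GRCh38.p14), which had an entry for 44 of the 52 genes, and searched for CACGTG, which reads the same on both strands. It was in 11 of 44 initiation factor genes (25%), against 2110 of 27305 genes (7.73%). The 44 are all protein-coding, while the 27305 were not limited to protein-coding genes, so these shares are over unlike sets. The promoters of EIF4E, EIF4G1 and EIF4A3 are shown as examples chosen for holding the motif. EIF4A1, EIF4A2, EIF4G2, EIF4G3, EIF4E2 and EIF4E3, of the same cap-binding and helicase families, have no match in this window, nor have EIF2D and EIF3B. Capitals mark CACGTG, at 225 and 72 bases before the start in EIF4E (reverse strand, chr4:98929134-98929383), 144 and 67 bases in EIF4G1 (forward strand, chr3:184314356-184314605) and 121 bases in EIF4A3 (reverse strand, chr17:80147129-80147378).
EIF4E: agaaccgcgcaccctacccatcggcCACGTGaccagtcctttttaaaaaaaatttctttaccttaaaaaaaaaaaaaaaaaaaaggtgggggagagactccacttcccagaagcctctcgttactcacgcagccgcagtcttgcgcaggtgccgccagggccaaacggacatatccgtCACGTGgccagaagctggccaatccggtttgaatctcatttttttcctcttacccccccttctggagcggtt
EIF4G1: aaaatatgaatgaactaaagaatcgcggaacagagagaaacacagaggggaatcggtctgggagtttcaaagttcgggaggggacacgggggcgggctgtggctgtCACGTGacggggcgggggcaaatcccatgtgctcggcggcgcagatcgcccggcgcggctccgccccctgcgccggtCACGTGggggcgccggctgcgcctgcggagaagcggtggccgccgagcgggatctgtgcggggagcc
EIF4A3: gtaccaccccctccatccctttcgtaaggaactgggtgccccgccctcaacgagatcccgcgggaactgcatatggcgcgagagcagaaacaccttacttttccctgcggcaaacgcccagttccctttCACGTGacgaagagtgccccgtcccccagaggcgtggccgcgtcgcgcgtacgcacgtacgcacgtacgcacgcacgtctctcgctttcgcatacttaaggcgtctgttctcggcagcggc
After 8q loss in A2058 the 10 tested genes with the motif had a median log2 fold change of -0.02 (-0.15 to 0.25) and the 31 without it -0.01 (-0.24 to 0.29), with no gene of either kind called. In HCT116 the medians were 0.23 and 0.13, again with no call. EIF4E was at -0.07 in A2058 and 0.00 in HCT116, EIF4G1 at 0.04 and 0.06, and EIF4A3 at -0.06 and 0.55. The motif is a match of letters and not a measured binding site.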

How the data were processed

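Gene counts of mRNA were deposited for each library by the authors, who aligned reads with HISAT2 2.0.5 to hg38 and counted them with featureCounts 1.5.0-p3, per the submitters' processing notes. The A2780 tables carry GRCh37 gene coordinates, per the file headers and columns, and were analysed within that line only, without printing their coordinates. The strand setting of the counting is not given in the sources used here, so genes that overlap on either strand may share reads. mRNA was selected with poly-T beads and copied from random hexamers, per the labels' protocols.

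All 62 libraries were used. The rule on gene names gave 52 genes, or 53 entries in A2780. Arms were assigned from gene midpoints and centromere positions. The genes, lists and tests were chosen with earlier results of these data known. Each of the 15 comparisons was fitted on its own libraries with edgeR 4.0.16 (quasi-likelihood test, TMM, filterByExpr with a minimum count of 10 and total of 15, Benjamini-Hochberg over all genes tested, call at an adjusted p under 0.05) in R 4.3.3. AGS and A2780 controls pooled WT and TK+ cells. CPM used TMM over all libraries of a line, and log2 CPM a prior count of 2. Alternatives were DESeq2 1.42.0, no filter or a mean of 1 CPM, other size factors, TMM outside the targeted arm, all libraries of a line in one fit, clones summed, a replicate block, each library or clone left out, and, chosen after seeing the data, other subsets of clones or WT libraries. Tables and figures used Python 3.11.15, numpy 2.4.6, pandas 2.3.3 and matplotlib 3.10.9.

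Named genes were EIF2D, EIF3B, EIF3E and EIF3H in every loss comparison, the 13 eIF3 subunits in the balance, up to 4 called genes with the largest rise and 4 with the largest fall per comparison, and up to 4 genes per pathway list plus those on a targeted arm. EIF5A, EIF4A1, EIF3F, EIF3M and EIF3K in single clones were named after their values were seen. Identities of paralogous proteins were not analysed here.

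The fit was tested on simulated data. In the layout of A2058 7p-loss with 15056 genes it recovered 25 of 100 genes changed by 0.58 on the log2 scale and 73 of 100 changed by 1, with 4.85% of the calls false. In that of MCF10A 1q-loss with 15341 genes it recovered 42 and 77 of 100, with 7.75% false. In these layouts a change of the size of 1 copy in 3 is therefore often missed by the test. The simulated libraries were drawn without shared clones, unlike the real ones.

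Among comparisons with 3 or more same-numbered pairs, the libraries deviated together in all pairs (r above 0.1) only in A2058 8q-loss against 7p-loss (r 0.23 to 0.48) and against 1q-loss (r 0.11 to 0.46), so the numbers were taken to pair the samples there. In A2780 TK+ against WT both pairs were above 0.1 (r 0.15), but 2 pairs are too few for this rule. AGS clones have no replicate number.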

Additional observations from a re-analysis of the deposited data

Results flagged for a closer look

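Estimates of 3 genes pointed in opposite directions in every library of a loss group relative to its controls, in different lines with 1q loss. The difference between the lines was not tested in any of them. The share of all genes that meet this rule was not counted, and in A2058 1q-loss 49.6% of all genes were called. EIF3B was at -0.24 in A2058, where every loss library was below every control, and at 0.41 in AGS, where every loss library was above every control, a difference of -0.65. EIF2A was at 0.36 in A2058 and -0.18 in MCF10A with hRASV12, a difference of 0.54. EIF3E was at 0.33 in A2058 and -0.17 in MCF10A with hRASV12, a difference of 0.50. The A2058 side of all 3 rests on the 1q-loss libraries with low melanocyte markers. Of 36 groups of 4 to 8 libraries for EIF2D, EIF3B, EIF3E and EIF3H tested with Dixon's criterion, 0 held an outlying library.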

How the results depend on the processing

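The numbers of initiation factor genes called moved in these settings. With DESeq2 it was 2 after 7p loss in A2058, 10 in AGS, 2 in MCF10A with hRASV12 under 1q loss and 1 for hRASV12 in 1q-loss clones. Without a filter it was 2 in A2780, 1 for TK+ against WT, 1 for hRASV12 in WT and 2 for 8q against 7p loss. With clones summed it was 1 in A2780, 0 for 8q against 7p loss, 1 for 7p against 1q loss and 5 for 8q against 1q loss. With all libraries of the line in one fit it was 1 in MCF10A with hRASV12, and 1 without clones 2 and 4. With WT libraries 1 and 2 or 3 and 4 as controls it was 0 and 0 after 7p loss and 0 and 0 after 8q loss. Of all genes 16 of 15957 and 47 of 16020 were called in these fits after 7p loss, and 79 of 15767 and 16 of 15846 after 8q loss. Without AGS clones 6 and 7 it was 0. Leaving out 1 library or clone gave 12 to 17 in A2058 1q-loss, 1 to 1 in 7p-loss, 1 to 2 in 8q-loss, 0 to 1 in HCT116, 0 to 8 in AGS (8 without clone 11), 1 to 5 in A2780 (1 without TK+ library 2), 0 to 1 in MCF10A, 0 to 0 with hRASV12, 0 to 9 for TK+ (9 and 7 without TK+ library 1 or 2, the lone library being assumed to vary like the others), 0 to 1 and 0 to 2 for hRASV12 in WT and loss cells, 0 to 4 for 8q against 7p, 4 to 16 for 7p against 1q and 5 to 13 for 8q against 1q. The causes were not tested, except that fewer libraries or clones are used by construction. Apart from the fits with WT libraries 1 and 2 or 3 and 4 as controls, the share of all genes called was not set beside these counts.

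On the lost arm every estimate stayed below 0 in the alternatives run. EIF2D kept its call in A2058 1q-loss and A2780 throughout. In AGS it was -0.57 without clones 6 and 7 (adjusted p = 0.0531, edgeR) and -0.59 to -0.44 with 1 library left out, and in MCF10A -0.57 to -0.48. With hRASV12 it was called by DESeq2 (-0.45), with all libraries of the line (-0.45, adjusted p = 0.0387) and without clones 2 and 4 (-0.40, adjusted p = 0.0461). With WT libraries 1 and 2, or 3 and 4, as controls, EIF3B after 7p loss was -0.61 and -0.59, EIF3E after 8q loss -0.62 (adjusted p = 0.126) and -0.46 (0.602), and EIF3H -0.55 and -0.61, none called. EIF3E was -0.62 to -0.47 with 1 library or clone left out. The 5 balance differences of eIF3 subunits on a lost arm moved by less than 1 SD of the loss libraries. In HCT116 that SD was wide: EIF3H ran from -0.78 to -0.39 with 1 library left out. Against the median reference EIF3H was at -0.40 there and EIF3E at -0.50.

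With the replicate number as a block the count was 0 after 7p loss and 0 after 8q loss in A2058, 2 for TK+ and 1 for hRASV12 in WT, and 4 and 11 in the comparisons where the numbers pair the samples, 8q against 7p loss and 8q against 1q loss. EIF3B was -0.60 (adjusted p = 0.135), EIF3E -0.63 (0.0647) and EIF3H -0.55 (0.0533) by edgeR with the block, where WT libraries 3 and 4 have no counterpart. In A2058 1q-loss the block also ended the calls of EIF3E (0.25, adjusted p = 0.0579) and EIF4H (-0.14, adjusted p = 0.0764). Elsewhere the libraries share only a number.

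For genes named outside their lost arm, 594 of 689 alternatives left the direction and call as they were. The sign turned in 18, all uncalled and near 0: EIF2D in A2058 8q-loss, EIF3B in MCF10A, EIF3E in A2058 7p-loss and A2780, and EIF3H in A2058 7p-loss, A2780 and both MCF10A comparisons. With 1 library or clone left out these ranged from -0.13 to 0.00, from -0.08 to 0.01, from -0.03 to 0.09 and -0.03 to 0.13, and from -0.16 to 0.06, -0.03 to 0.08, -0.08 to 0.11 and -0.05 to 0.00. EIF3E after 7p loss was -0.04 with the replicate block and -0.04 with WT libraries 1 and 2 as controls. In AGS, EIF4A3 and EIF5B, and in A2780, EIF4G1, EIF4G2 and EIF4A2, lost their calls in several of the alternatives.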

Other observations

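Duplicate genes of the family did not always share a change. In A2058 1q-loss, EIF5A2 rose by 0.42 while its abundant relative EIF5A was at -0.01, EIF1 rose by 0.24 (adjusted p = 0.00496, edgeR) with EIF1B at 0.10, and EIF4EBP2 fell by 0.49 with EIF4EBP1 at -0.14. In A2780, EIF4G1 fell by 0.25 with EIF4G3 at 0.13. The differences between the members of these pairs were not tested. EIF4E3 was at -3.84 in HCT116, on 30 and 35 reads in WT and 4, 4, 1 and 0 after 8q loss, and at -0.76 in AGS, on 43 to 165 reads per library, and was not called in either. In AGS, EIF1 was at -0.54 with no call, the largest negative estimate there among the tested factors for scanning and subunit joining.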
